A study of Mus musculus with 6 samples.

Results

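The 10 transcription factors that mark or drive the effector state of regulatory T cells (Treg) were followed by their transcripts: Prdm1, Irf4, Batf, Maf, Myb, Nfil3, Bhlhe40, Id2, Pparg and Xbp1. They were chosen by name, as 10 of the 37991 genes in the count table, and 9 of the 10 had enough counts to be tested. RNA came from Treg of mouse spleen, which are CD4 T cells expressing the lineage factor Foxp3 and were sorted here by a yellow fluorescent reporter after enrichment of CD4 T cells. In all, 3 libraries were labelled wild type and KAP1 sufficient and 3 were labelled KAP1 deficient. Trim28 encodes KAP1, which represses genes to which zinc finger proteins of the KRAB class recruit it. The labels name the background C57BL/6 for the sufficient libraries and deficient replicate 1, C57BL/7 for deficient replicate 2 and C57BL/8 for deficient replicate 3; they are given as spelled, and whether the strains truly differed is not known here. The driver of the reporter, the way KAP1 was removed, and the age, sex and number of animals are not stated in the material used here. The labels do not say whether libraries are separate animals, so the p-values reflect spread among libraries that may be technical.

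Resting Treg circulate through lymphoid organs, and after antigen receptor stimulation a part of them takes on an effector state with more suppressive and homing molecules. IRF4 and BATF, which bind DNA together, act early in that step; BLIMP1, encoded by Prdm1, and MAF act in differentiated cells, where they favour the cytokine IL-10. MYB has been tied to effector differentiation of Treg, ID2 neutralizes E proteins, NFIL3 and BHLHE40 are transcriptional regulators induced by stimulation, XBP1 drives secretory pathway genes, and PPARG marks Treg of fat tissue.

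Trim28 itself went against the label in the libraries numbered 3. Counts of Trim28 were 2462, 2483 and 218 for sufficient-labelled replicates 1, 2 and 3, and 232, 185 and 2544 across the deficient-labelled ones. The members were therefore read out in 2 ways: by label, and between the 3 libraries with low Trim28 (sufficient replicate 3, deficient replicates 1 and 2) and the 3 with high Trim28 (sufficient replicates 1 and 2, deficient replicate 3). The second is an ordering by a measured transcript and assigns no genotype. Each replicate is named below by its label, as the library labelled so. Totals were 9954344 to 10994745 counts per library. By a chi-square test over genes, per degree of freedom, the library labelled deficient replicate 3 differed from every other library by 7.22 to 8.65, whereas sufficient replicates 1 and 2 differed by 2.81 and the 3 libraries with low Trim28 by 2.43 to 3.10 among themselves. Sufficient replicates 1 and 2 differed from the 3 libraries with low Trim28 by 11.5 to 13.4. Deficient replicate 3, although high in Trim28, was close to neither set. It differed by 7.22 and 7.64 from sufficient replicates 1 and 2, and by 8.49 to 8.65 from the libraries with low Trim28. Foxp3 was present at 596 to 747 CPM (counts scaled to 1000000 per library) in all 6 libraries, with a log2 difference of -0.16 ± 0.07 with low Trim28 (edgeR adjusted p = 0.193) that passed without both libraries numbered 3 (-0.25 ± 0.05, adjusted p = 0.00509).

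By label, none of the 9 tested members passed the edgeR test at an adjusted p under 0.05, against 0.0165% of 12158 tested genes called. None passed at an unadjusted p under 0.05 either, against 7.76% of all tested genes, and DESeq2 called no member and 0.0322% of the 18640 genes it tested. Fitted log2 fold changes, deficient minus sufficient, ran from -0.21 (Prdm1) to 0.07 (Id2), with 6 members lower and 3 higher. These values depend on single libraries: that of Prdm1 was -0.06 without deficient replicate 1 and -0.47 without deficient replicate 3. For none of the 9 were the labelled groups free of overlap, against 12.8% of all tested genes whose groups did not overlap. Leaving out sufficient replicate 3 gave 1 call by label, Myb (-0.32, adjusted p = 0.0381), against 6.54% of all tested genes. Leaving out any other single library gave none, against 0.00811%, 0.00812% or 0.00813% of genes. Every direction by label rests on labels that Trim28 contradicts in 2 libraries.

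Between libraries of low and high Trim28, 4 of the 9 tested members were lower and none was higher at an edgeR adjusted p under 0.05, against 8.23% of 12158 genes called in either direction, 3.61% called lower and 4.61% called higher. The 4 were Maf, Prdm1, Myb and Id2. At an unadjusted p under 0.05 there were 6 members, against 22.3% of genes, and DESeq2 also called 4 members, against 6.06% of 13178 genes. The median log2 fold change of the 9 was -0.31, and that of all tested genes 0.00211. Groups did not overlap for 6 of the 9, 5 of them lower with low Trim28, against 26.4% of all tested genes in either direction, 14.5% lower and 11.9% higher. The members were chosen with earlier results of these data known, so these counts describe the list and do not test it. In bulk RNA, fewer effector cells and less RNA per cell cannot be told apart.

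Maf, a basic leucine zipper factor that activates Il10 in T cells (ENSMUSG00000055435, chromosome 8, 115682942 to 115707794, mm10), showed the largest log2 difference among the tested members by Trim28 level. It stood at 183, 204 and 123 CPM for sufficient-labelled replicates 1, 2 and 3, and at 125, 128 and 206 CPM across the deficient-labelled ones. Sufficient replicate 3 lay with deficient replicates 1 and 2, and deficient replicate 3 was the highest of all, so that the low and high Trim28 sets were separate. Mean Maf was 125 ± 2.79 CPM with low and 198 ± 13.0 CPM with high Trim28 (SD, n = 3 each). The fitted log2 difference was -0.65 ± 0.06 (SE), with an edgeR adjusted p = 4.08e-06. By label its log2 value was -0.15 ± 0.29, at an edgeR adjusted p = 0.906, and it ranged from -0.0027 without sufficient replicate 2 to -0.42 without deficient replicate 3. The Trim28-level call held in all 13 alternative fits, at -0.69 to -0.60.

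Prdm1 encodes BLIMP1, a zinc finger repressor (ENSMUSG00000038151, chromosome 10, 44437177 to 44528501). Its level was 20.6, 22.4 and 18.1 CPM across the sufficient-labelled replicates, and 13.5, 15.9 and 23.4 CPM across the deficient-labelled ones. All 3 libraries with low Trim28 were below all 3 with high Trim28, with the smallest gap between sufficient replicates 3 and 1. The log2 fold change was -0.47 ± 0.11 with low Trim28 (edgeR adjusted p = 0.019). That call was lost without sufficient replicate 2 (adjusted p = 0.0592), deficient replicate 1 (0.112) or deficient replicate 2 (0.0726), at log2 fold changes of -0.47, -0.37 and -0.47.

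Myb, the factor encoded by the c-Myb gene (ENSMUSG00000019982, chromosome 10, 21124935 to 21160984), was at 96.9, 85.6 and 70.7 CPM across the sufficient-labelled replicates and at 68.1, 71.4 and 80.1 CPM across the deficient-labelled ones. Deficient replicate 3 was the lowest of the 3 libraries with high Trim28 and still above those with low Trim28. The log2 fold change was -0.31 ± 0.07 with low Trim28 (edgeR adjusted p = 0.0169). Without sufficient replicate 1 (-0.23), sufficient replicate 3 (-0.32), deficient replicate 1 (-0.29) or deficient replicate 2 (-0.32) the call was lost, at adjusted p-values of 0.0822, 0.0695, 0.0838 and 0.0603. Each of those fits held 1 library fewer than the 6.

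Id2, the inhibitor that pairs with E proteins and keeps them off DNA (ENSMUSG00000020644, chromosome 12, 25093799 to 25097140), was at 21.2, 21.6 and 16.5 CPM across the sufficient-labelled replicates and at 15.4, 19.2 and 27.8 CPM across the deficient-labelled ones. Deficient replicate 3 lay above all others, and the sets of low and high Trim28 did not overlap. The log2 fold change was -0.46 ± 0.12 (edgeR adjusted p = 0.0326). It was -0.30 without both libraries numbered 3, where it was not called (adjusted p = 0.119), a change of more than 1.5 times, and the call was also lost without sufficient replicate 3 (-0.44, adjusted p = 0.129) or deficient replicate 1 (-0.39, adjusted p = 0.155).

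**Figure D1:**
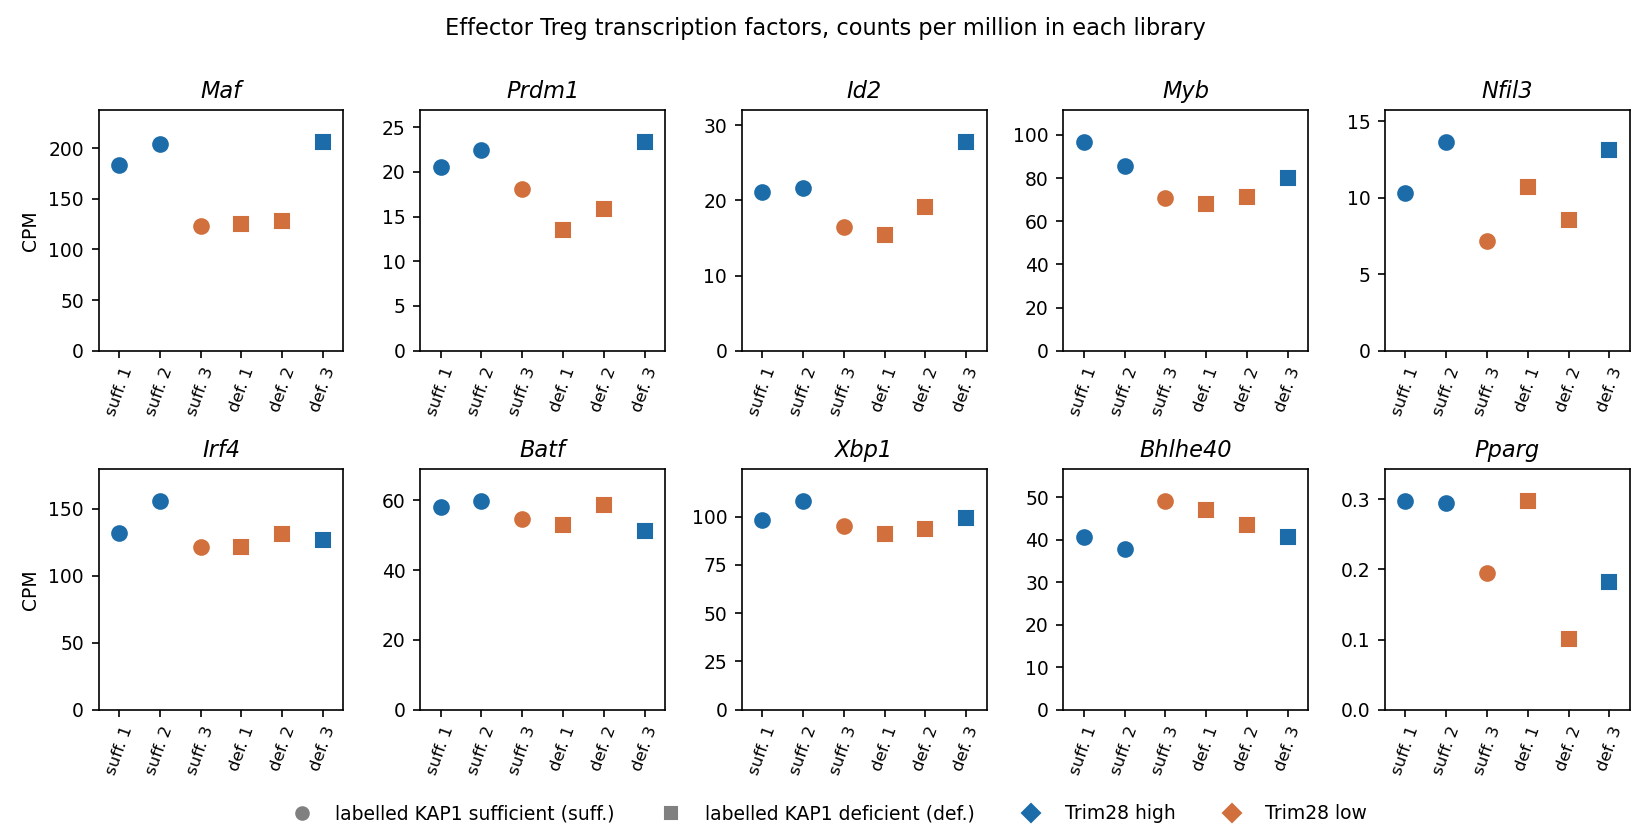
CPM of each of the 10 members (vertical axes, each from 0) in the 6 libraries (horizontal axes); circles are libraries labelled KAP1 sufficient, squares those labelled KAP1 deficient, blue is high and orange low Trim28. Maf, Prdm1, Id2, Myb and Xbp1 are lower in every orange than in every blue library, Bhlhe40 is higher, and Pparg stays at or below 0.298 CPM. Xbp1 and Bhlhe40 were not called.

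Irf4, Batf and Xbp1 differed less. Irf4, an interferon regulatory factor induced by antigen receptor signals (ENSMUSG00000021356, chromosome 13, 30749226 to 30766976), was at 132, 156 and 122 CPM across the sufficient-labelled replicates, and 122, 131 and 126 CPM across the deficient-labelled ones. Sufficient replicate 2 was high and the other 5 libraries lay close together, with overlap between the sets. With low Trim28 the log2 fold change was -0.13 ± 0.08 (edgeR adjusted p = 0.323), -0.20 without deficient replicate 3 (adjusted p = 0.0297) and -0.04 without sufficient replicate 2 (adjusted p = 0.844).

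Batf, the AP-1 family partner of IRF4 (ENSMUSG00000034266, chromosome 12, 85686669 to 85709087), varied little, with a coefficient of variation of 6.15% over the 6 libraries, beside 6.17% for Xbp1. Its values were 57.9, 59.8 and 54.5 CPM across the sufficient-labelled replicates, and 52.8, 58.5 and 51.3 CPM across the deficient-labelled ones, and both pairs of groups overlapped. The log2 fold change with low Trim28 was -0.02 ± 0.08 (edgeR adjusted p = 0.922). Xbp1, a factor activated by splicing of its own RNA during endoplasmic reticulum stress (ENSMUSG00000020484, chromosome 11, 5520659 to 5525893), was at 98.4, 108 and 95.2 CPM across the sufficient-labelled replicates and at 91.2, 93.4 and 99.4 CPM across the deficient-labelled ones. All 3 libraries with low Trim28 were below those with high Trim28, but the log2 fold change of -0.12 ± 0.06 did not pass the edgeR test (adjusted p = 0.25). Gene counts do not separate spliced from unspliced Xbp1.

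Nfil3 and Bhlhe40 lay on either side of 0 without passing the test. Nfil3, a basic leucine zipper repressor (ENSMUSG00000056749, chromosome 13, 52967209 to 52981073), was at 10.3, 13.7 and 7.18 CPM across the sufficient-labelled replicates and at 10.7, 8.54 and 13.1 CPM across the deficient-labelled ones. Its sets overlapped, since deficient replicate 1 was above sufficient replicate 1. The log2 fold change was -0.48 ± 0.16 with low Trim28 (edgeR adjusted p = 0.0853), as large as that of Prdm1 at a lower count of 74 to 144 per library. The test called it lower without deficient replicate 1 (-0.64, adjusted p = 0.0475) and without the filter on low counts (-0.48, adjusted p = 0.0135), and gave -0.31 without both libraries numbered 3 (adjusted p = 0.272).

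Bhlhe40, a basic helix-loop-helix repressor (ENSMUSG00000030103, chromosome 6, 108660629 to 108666925), was the one tested member with a positive value by Trim28 level. Levels were 40.6, 37.9 and 49.2 CPM across the sufficient-labelled replicates, and 47.0, 43.6 and 40.7 CPM across the deficient-labelled ones. All 3 libraries with low Trim28 were above all 3 with high Trim28, and the log2 difference was 0.24 ± 0.08, at an edgeR adjusted p = 0.0645. It was called higher without deficient replicate 3 (0.25, adjusted p = 0.0248) and without the filter on low counts (0.24, adjusted p = 0.0493).

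Pparg, the nuclear receptor of fat-tissue Treg (ENSMUSG00000000440, chromosome 6, 115360951 to 115490399), had 3, 3 and 2 counts across the sufficient-labelled replicates, and 3, 1 and 2 across the deficient-labelled ones. None of the 6 exceeded 3 counts, the limit that a count of 0 allows, which corresponds to 0.273 to 0.301 CPM, so no fold is given and a difference was not detectable at this depth. The limit covers counting error only.

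**Figure D2:**
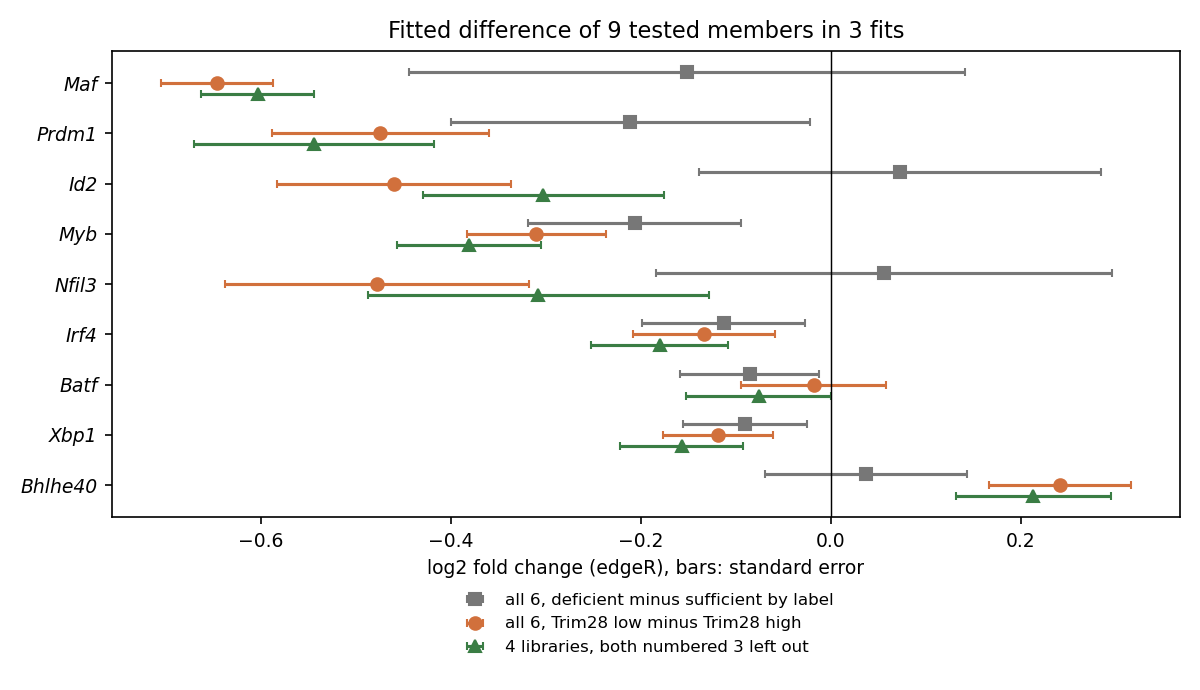
Log2 fold changes of the 9 tested members (horizontal axis, bars are standard errors) in the fit by label, the fit by Trim28 level and the fit of the 4 libraries that are not numbered 3. Maf, Prdm1 and Myb lie left of 0 in all 3 fits, Id2 and Nfil3 are right of 0 by label, and Bhlhe40 is right of 0 in all 3.

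Without both libraries numbered 3, the labels and the Trim28 level give the same grouping of 2 against 2. In that fit 3 of 9 members were lower and none higher, against 17.4% of 12183 tested genes called in either direction, 7.39% called lower and 9.96% called higher. In that fit Maf stood at -0.60 ± 0.06 (log2, edgeR adjusted p = 6.1e-06), Prdm1 at -0.54 ± 0.13 (0.00788) and Myb at -0.38 ± 0.08 (0.00274). Without deficient replicate 3 alone, 6 of 9 members passed by Trim28 level, 5 lower and Bhlhe40 higher, against 22.2% of all tested genes. Without sufficient replicate 3, deficient replicate 1 or deficient replicate 2, 2 of 9 passed, against 4.83%, 4.51% and 4.57% of all tested genes, and without sufficient replicate 1 or 2, 3 of 9 passed, against 5.26% and 4.91%.

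The authors' deposited table names neither its groups nor its direction in its header, and 3 of the 9 members with an adjusted p were called there at 0.05, against 6.87% of 12072 genes. The authors' deposited table gives a log2 fold change of 0.55 for Maf (adjusted p = 1.9e-12), 0.28 for Myb (0.0123) and 0.34 for Prdm1 (0.0401). Id2 is at 0.33 in the authors' deposited table with an adjusted p of 0.0501, Nfil3 at 0.30 with 0.175, and Bhlhe40 at -0.20 with 0.209. Trim28 stands at 3.11 in the authors' deposited table, so positive values lie on the side of higher Trim28. The 6 labels do not give these values: by label, sufficient minus deficient would be negative for Id2 and Nfil3, whose fitted deficient minus sufficient values were 0.07 and 0.06, and Trim28 itself stood at -0.90 ± 1.46 in the edgeR fit by label (adjusted p = 0.889). The direction of all 9 values is that of high against low Trim28. That table rests on libraries of this series, and the sources used here do not give which ones entered it.

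Per length, the members fell into 4 runs whose ranges did not meet. On the scale of CPM per kilobase of annotated exon, Batf was the most abundant at 36.5 to 42.5, and stood alone. Xbp1 (28.1 to 33.3), Irf4 (24.8 to 31.8) and Maf (14.9 to 25.1) followed, each overlapping its neighbour in that order. Bhlhe40 (8.06 to 10.5), Myb (7.63 to 10.8), Id2 (6.31 to 11.4), Nfil3 (3.55 to 6.74) and Prdm1 (2.42 to 4.19) formed the next run, again with each range overlapping the next. Pparg lay apart from all others, at 0.034 to 0.101. The binding partners Batf and Irf4, with coefficients of variation of 6.15% and 9.73% over the libraries, were thus among the 3 most abundant members, whereas Prdm1 was the least abundant tested member. Exon lengths combine all annotated transcripts, so a gene that uses a short form is understated.

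**Figure D3:**
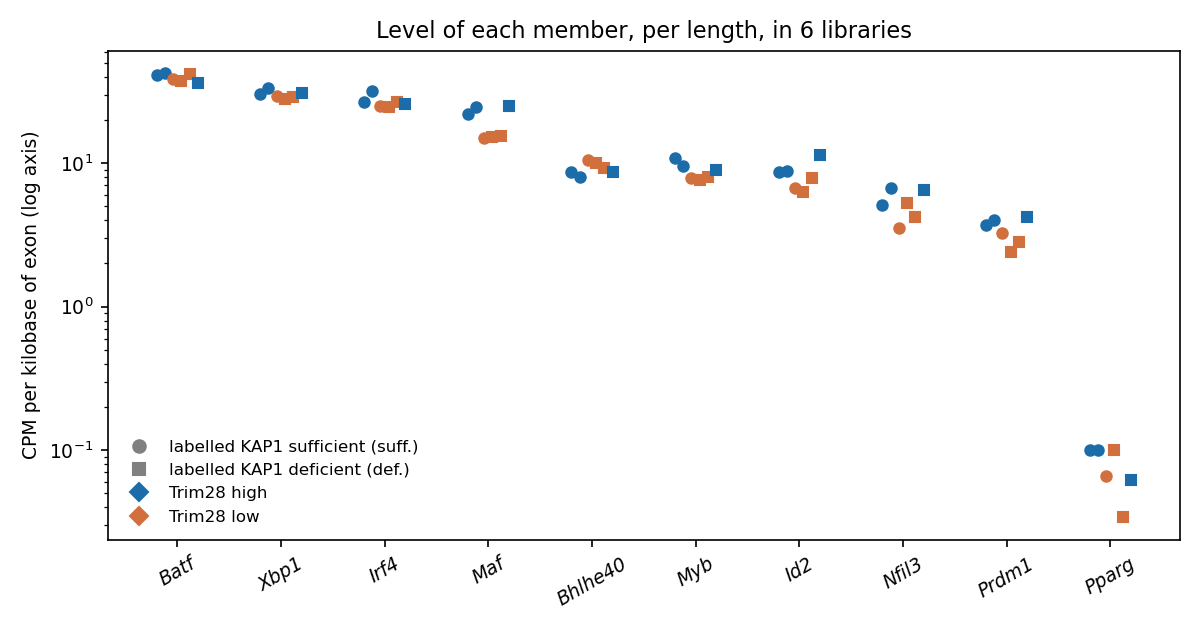
Level of each member in CPM per kilobase of exon (vertical log axis) with 1 point per library, ordered by the median; circles are libraries labelled sufficient, squares deficient, blue is high and orange low Trim28. Batf lies between 36.5 and 42.5, and Pparg, at no more than 0.101, is far below the other 9.

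Promoter sequence is shown for Prdm1 and Myb, which were lower with low Trim28, and for Irf4 and Xbp1, which were not called, so that start sites of both kinds can be read side by side. The table of RefSeq windows used here (GRCm38.p6) matched 8 of the 10 members, the others being Maf and Bhlhe40. Each line gives the 250 bases before an annotated start, 5′ to 3′ on the strand of the gene, with motif matches in capitals.
Prdm1, chr10:44458749-44458998, strand minus: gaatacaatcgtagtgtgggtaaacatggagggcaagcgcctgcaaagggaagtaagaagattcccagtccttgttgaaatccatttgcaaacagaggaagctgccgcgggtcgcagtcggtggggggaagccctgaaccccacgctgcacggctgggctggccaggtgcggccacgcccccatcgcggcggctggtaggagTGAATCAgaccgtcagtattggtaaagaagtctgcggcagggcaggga
Myb, chr10:21160985-21161234, strand minus: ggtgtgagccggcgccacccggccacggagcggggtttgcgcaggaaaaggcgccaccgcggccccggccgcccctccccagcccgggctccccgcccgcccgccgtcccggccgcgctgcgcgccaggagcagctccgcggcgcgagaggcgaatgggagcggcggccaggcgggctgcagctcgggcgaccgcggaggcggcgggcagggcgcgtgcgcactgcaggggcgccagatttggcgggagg
Irf4, chr13:30748983-30749232, strand plus: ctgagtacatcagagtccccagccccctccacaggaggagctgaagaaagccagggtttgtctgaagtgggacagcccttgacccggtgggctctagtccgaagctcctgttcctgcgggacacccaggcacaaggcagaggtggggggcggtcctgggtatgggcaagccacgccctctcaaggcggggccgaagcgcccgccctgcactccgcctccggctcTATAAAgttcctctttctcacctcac
Xbp1, chr11:5520391-5520640, strand plus: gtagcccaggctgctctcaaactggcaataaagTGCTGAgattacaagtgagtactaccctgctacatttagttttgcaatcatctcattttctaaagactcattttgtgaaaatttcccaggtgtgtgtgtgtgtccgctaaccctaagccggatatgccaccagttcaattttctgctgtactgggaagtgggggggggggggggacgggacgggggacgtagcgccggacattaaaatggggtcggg
In GENCODE M21 the Prdm1 window lies inside the span of a longer transcript and in no exon, those of Myb and Xbp1 lie outside every transcript, and that of Irf4 reaches 7 bases into its first exon. The motifs searched, 8 in number and on both strands, were TGANTCA, the AP-1 site that BATF binds with JUN; GAAA, any 2 bases and GAAA, an IRF element; GAAAGTG, a BLIMP1 element; TGCTGA, a core of the MAF site; CACGTG, an E-box bound by BHLHE40; TTANNTAA, an NFIL3 element; TGACGTG, an XBP1 element; and TATAAA, the TATA box. In that order they occurred in 6.75%, 2.98%, 4.01%, 16.1%, 6.02%, 5.43%, 1.65% and 12.4% of all 32851 windows of this length. The Prdm1 window held TGAATCA, 48 to 42 bases before the start, the Irf4 window TATAAA, 26 to 21 bases before it, and the Xbp1 window TGCTGA, 217 to 212 bases before it. The Myb window held none of the 8. It was 81.2% G and C with 40 CG pairs, against 59.2% and 15 for Prdm1, 63.6% and 11 for Irf4 and 50.4% and 8 for Xbp1, beside medians of 52.4% and 6 over all windows. A match describes these letters and is not a site shown to be bound.

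Paralogs and binding partners of the members were read out in the fit by Trim28 level, which called 3.61% of all tested genes lower and 4.61% higher. Of 24 tested paralogs 3 were lower and none higher with low Trim28, with a median log2 fold change of -0.05: Id3 (-0.56 ± 0.07, edgeR adjusted p = 0.000214), which encodes an E protein inhibitor related to ID2, the stress sensor gene Atf6 (-0.34 ± 0.08) and Creb3l2 (-0.29 ± 0.08). Id3 stood at 1120, 1017 and 688 counts across the sufficient-labelled replicates and at 668, 692 and 992 counts across the deficient-labelled ones, so its low and high Trim28 sets were separate, as for Id2. The paralogs called fell to 1 without sufficient replicates 2 or 3 or deficient replicates 1 or 2, against 4.51% to 4.91% of all tested genes. On all 6 libraries DESeq2 called 1 of 26, against 6.06% of genes, and a fit with a replicate block 2, against 9.19%. Upper-quartile factors gave 4, against 8.64%, and no filter on low counts 5 of 31, 1 of them higher, against 8.99%. None of 16 tested DNA-binding partners passed the edgeR test. At an unadjusted p under 0.05 there were 5, against 22.3% of all tested genes. The AP-1 gene Jun (0.30 ± 0.11, edgeR adjusted p = 0.108) and the deacetylase gene Hdac3 (-0.16 ± 0.06, adjusted p = 0.133) came nearest. The partners called were 2 higher without sufficient replicate 3, 4 lower without deficient replicate 3, and 2 higher and 4 lower without both. Those fits called 4.83%, 22.2% and 17.4% of all tested genes. Without the filter on low counts, 2 of 18 tested partners were called higher and 2 lower, against 8.99% of genes.

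Surface and secreted genes of effector Treg were called lower in 6 and higher in 2 of 29 cases with low Trim28. Over all tested genes 3.61% were called lower and 4.61% higher, and the list median log2 fold change was -0.13. The calls were 6 without sufficient replicate 2 or deficient replicate 1, against 4.91% and 4.51% of all tested genes. They were 12 without deficient replicate 3, against 22.2%. Klrg1, a receptor of terminally differentiated cells, had 119, 93 and 12 counts across the sufficient-labelled replicates, and 3, 9 and 86 across the deficient-labelled ones, or -3.57 ± 0.31 on the log2 scale (edgeR adjusted p = 2.48e-06). Icos, the costimulatory receptor gene, had -0.56 ± 0.07, the homing receptor gene Ccr4 -0.40 ± 0.07 and the co-inhibitory receptor gene Tigit -0.36 ± 0.07. The 2 higher ones, Ccr6 (0.25) and Lgals3 (1.11), were named after their values were seen. Il10, the cytokine gene that MAF and BLIMP1 favour, also named after its values were seen, had 12, 25 and 13 counts across the sufficient-labelled replicates, and 7, 5 and 29 across the deficient-labelled ones. It missed the threshold (-1.33 ± 0.40, adjusted p = 0.0542).

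Genes linked to XBP1 and PPARG were compared between low and high Trim28, in a fit that called 8.23% of all tested genes, 3.61% lower and 4.61% higher. Of 20 tested unfolded protein response genes 1 was called, Edem1, a gene of protein degradation (0.23 ± 0.06, edgeR adjusted p = 0.0292), and the list median was -0.04. Without sufficient replicates 1, 2 or 3, or deficient replicates 1 or 2, no listed gene was called, against 4.51% to 5.26% of genes. Without deficient replicate 3 the calls were 5, 4 of them lower, against 22.2% of all tested genes. Of 13 tested lipid genes linked to PPARG 2 were higher, the fatty acid oxidation gene Acadm (1.87 ± 0.07) and the cholesterol exporter gene Abca1 (0.42 ± 0.09), at a list median of -0.01 and with Pparg itself at the limit of detection. That count was 1 without sufficient replicate 3 or deficient replicate 2, against 4.83% and 4.57% of all tested genes. It was 5, with 2 of them lower, without deficient replicate 3, against 22.2%.

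Among transcription factors and homing genes of resting Treg, 2 of 13 were lower and none higher with low Trim28, Id3 and Klf3 (-0.36 ± 0.10, edgeR adjusted p = 0.0468), with a median of -0.06. The count was 6 without deficient replicate 3, against 22.2% of all tested genes. Without any other single library it was 1, against 4.51% to 5.26%. Of 20 genes of the antigen receptor and NF-kB input 5 were lower and 1 higher, with a median of -0.12. Nfatc1, a calcium-responsive factor, had -0.55 ± 0.07, the signalling scaffold gene Malt1 -0.42 ± 0.05, and the early response genes Egr1 and Nr4a1 -0.57 ± 0.12 and -0.27 ± 0.06. Without sufficient replicate 1, deficient replicate 1 or deficient replicate 2, 2 genes of this list were called. Without sufficient replicate 2, 3 were. These fits called 4.51% to 5.26% of all tested genes. By label no gene of any of these lists was called by edgeR.

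**Figure D4:**
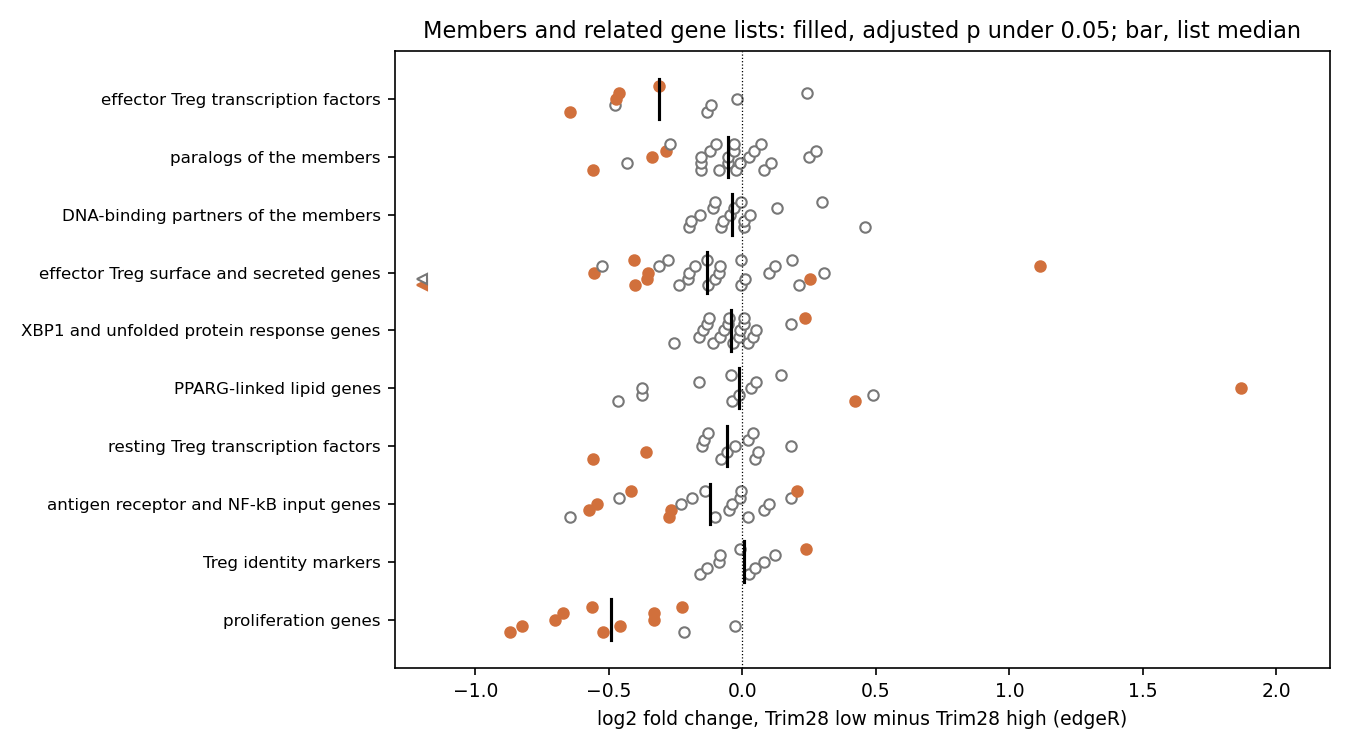
Log2 fold change with low against high Trim28 (horizontal axis) for each tested gene of the members' list and of related lists (rows); filled points have an adjusted p under 0.05, black bars are list medians and triangles at the left edge stand for Klrg1 at -3.57 and Il10 at -1.33. The members' median is -0.31, that of proliferation genes -0.49, and the other medians lie between -0.13 and 0.0078.

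Several measures moved together with the members. With low Trim28, 10 of 12 proliferation genes were called lower, against 3.61% of all tested genes. Among them were Mki67 (-0.70 ± 0.09), Rrm2 (-0.52 ± 0.09), Aurkb (-0.87 ± 0.16) and Cdk1 (-0.83 ± 0.15). The count was 5 without deficient replicate 1, against 4.51% of all tested genes in either direction. Their summed level was 503 to 520 CPM with low and 660 to 790 CPM with high Trim28. The mitochondrial share of counts was 1.33% to 1.41% with low and 1.61% to 2.1% with high Trim28. Summed B and plasma cell markers, cells in which Prdm1, Irf4 and Xbp1 are also expressed, were 545 to 582 CPM with low and 608 to 698 CPM with high Trim28. Ighm made up 96.5% of that sum (-0.19 ± 0.06, edgeR adjusted p = 0.0698), and without it the sums were 16.3 to 16.6 and 24.0 to 28.7 CPM. Of the 4 tested genes of that list Igkc (-2.24 ± 0.45) and Cd22 (-0.88 ± 0.22) were lower, 5 of its 12 genes never exceeded 3 counts, Ms4a1 and Pax5 had at most 1 count and Tnfrsf17 was at 0 in every library. Without deficient replicate 2 none of that list was called, and without sufficient replicates 1, 2 or 3 or deficient replicate 1 the count was 1. Those fits called 4.51% to 5.26% of all tested genes.

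Summed markers of natural killer and innate lymphoid cells, which use Id2 and Nfil3, were 17.6 to 18.7 CPM with low and 11.3 to 14.0 CPM with high Trim28. Of the 3 tested genes of that list only Klrb1c was called (1.97 ± 0.18, higher), and the list median was 0.19. Without sufficient replicate 2, deficient replicate 3 or the filter on low counts, 1 was called higher and 1 lower. Those fits called 4.91%, 22.2% and 8.99% of all tested genes. Prf1 was at 56 to 84 counts per library, Ncr1 was at 0 in every library and 5 of the 9 genes were never above 3 counts. Myeloid and dendritic markers summed to 2.72 to 3.67 CPM with low and 2.26 to 2.73 CPM with high Trim28, with Itgam at 12 to 27 counts, 9 of 12 genes never above 3 counts and 4 at 0 in every library, and of CD8 T cell markers Cd8b1 had 102 to 148 and Cd8a at most 5 counts. Treg identity markers summed to 6378 to 6530 CPM with low and 6469 to 6624 CPM with high Trim28, with Capg higher (0.24 ± 0.06) and Il2rb at 0.05 ± 0.05. None of these identity markers was called without sufficient replicates 1 or 3 or deficient replicate 2, against 4.57% to 5.26% of all tested genes. Without deficient replicate 3, 5 were called, 3 of them lower, against 22.2%. The part of proliferation, of other cells' markers and of the mitochondrial share in the members' differences was not tested.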

How the data were processed

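RNA was counted in 6 libraries, grouped by the sample titles. The count table the authors deposited holds whole reads for each Ensembl gene, not normalized. The submitters' processing notes name the mm10 build and, without roles, DESeq2, HTSeq 0.7.2 and TopHat2 2.1.1; the sources used here give neither annotation release nor strand setting. The authors also deposited a table of their own comparison with a mean level (a signal per gene), log2 fold changes, test scores and p-values, as the file headers name them.

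Symbols matched 32919 of 37991 gene IDs; the 5072 rows without one held 0.603% of counts. Positions and exon lengths are from GENCODE M21. Antisense genes overlap exons of Maf, Myb and Bhlhe40; those of Maf and Bhlhe40 had at most 2 counts per library, and that of Myb was not analysed here.

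Tests across genes used edgeR 4.0.16 under R 4.3.3 on the counts (quasi-likelihood, robust, TMM, filterByExpr, Benjamini-Hochberg over all tested genes, threshold 0.05); standard errors derive from the fold change and F. Alternatives were DESeq2 1.42.0, other factors, no filter, a replicate block, a non-robust fit and left-out libraries. Only the edgeR fit by label was tested on simulated data, drawn with a common dispersion. The grouping by Trim28 level and the alternatives were not. The low against high Trim28 sets follow the rule that named the members. Members and lists were chosen with earlier results of these data known. Named genes are all members, Trim28, Foxp3, and per list up to 4 called by Trim28 level with the smallest adjusted p (2 if none), with the most abundant gene of marker lists.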

Additional observations from a re-analysis of the deposited data

How the results depend on the processing

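By label, 0 members were called by edgeR under every alternative except without sufficient replicate 3 (1, Myb, against 6.54% of genes) and without both libraries numbered 3 (3, against 17.4%). Leaving out single libraries thus gave 0 to 1. By Trim28 level, 4 members were called, and leaving out single libraries gave 2 to 6, against 4.51% to 22.2% of genes. The count was lowest without sufficient replicate 3, deficient replicate 1 or deficient replicate 2 and highest without deficient replicate 3. No filter on low counts gave 6 of 10 tested, against 8.99% of 18647 genes. Without both libraries numbered 3 the count was 3, against 17.4%. DESeq2, the other factors, the replicate block and the non-robust fit gave 4 each, against 6.06% to 9.19% of genes. The replicate block left 0 members called by label and 4 by Trim28 level, and moved the calls over all genes from 2 to 0 and from 1000 to 1117. Deviations of same-numbered libraries from the means of the Trim28 sets correlated at -0.038, 0.048 and 0.033, so no pairing by number was seen; deviations from the label groups (-0.356, -0.278 and -0.594) do not bear on it, since those groups mix both Trim28 levels. Of 117 single values by label 105 kept direction and side of the threshold, 4 gained the call and 8 changed sign; of 117 by Trim28 level 99 kept both, 10 lost and 5 gained the call and 3 changed sign, none of the sign changes being called. Without both libraries numbered 3 the label values of Nfil3 and Id2 turned to -0.31 and -0.30. Leaving out single libraries moved them by label from -0.15 to 0.30 (Nfil3), -0.19 to 0.24 (Id2) and -0.043 to 0.16 (Bhlhe40), and by Trim28 level from -0.087 to 0.027 (Batf). The cause was not tested. Fits that leave a group with 2 libraries rest on fewer samples. Depth limits genes below 0.273 to 0.301 CPM, here Pparg.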
